A study of Mus musculus with 9 samples.

Results

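The genes described here were 6 enzymes of cholesterol synthesis, Hmgcs1, Idi1, Fdft1, Sqle, Lss and Cyp51, together with Insig1, a membrane protein that restrains that synthesis. They were chosen by name, and all 7 were measured among the 19938 genes of the array table. None of the 7 takes up cholesterol, so genes of uptake were followed as a separate list. RNA from brain was hybridised to 9 arrays, 3 in each of 3 groups. The HPYD group consisted of APP/PS1 transgenic mice, which carry Alzheimer's disease transgenes for the amyloid precursor protein and a presenilin, given the peptide HPYD, a breaker of beta-sheets, through the nose at 33 mg/mL and 5 μL per day for 30 days. The model group consisted of APP/PS1 transgenic mice given the same volume of saline. The control group consisted of wild type mice without the transgenes, given saline in the same way. The strain background was labelled C57/6J in all groups. The transgenic mice were bought at 8 months of age, and the study describes the control mice as being of the same age. The brains were taken after a water maze, which all groups therefore shared. The promoters that drive the transgenes were not given in the sources used here, and neither was whether each array came from a separate mouse. The spread behind each p-value is therefore that between these arrays, and an unknown part of it may be technical.

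Cholesterol of the brain is made largely within the brain, because lipoproteins of the blood hardly cross the blood-brain barrier. Synthesis starts from acetyl-CoA and passes through mevalonate, isoprenoid units, squalene and lanosterol. When sterols in the endoplasmic reticulum are low, SCAP escorts the transcription factor SREBP-2 to the Golgi for cleavage, and SREBP-2 then activates the genes of sterol synthesis and uptake, while INSIG proteins hold SCAP back when sterols are high.

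The promoters of these genes are known to carry elements for SREBP-2 and its partners, among them NF-Y, which binds CCAAT boxes. RefSeq promoters of build GRCm38.p6, from 250 bases before to 50 bases after the start, were matched for 5 of the 7 genes, namely Hmgcs1, Idi1, Lss, Cyp51 and Insig1. Both strands were searched for the letters TCACNCCAC, a form of the sterol response element, and for CCAAT, and in these 5 promoters matches of the 2 motifs did not overlap. CCAAT stood in 5 of 5 promoters, against 37.4% of all 32851 promoters and 25 of 50 promoters of the other cholesterol genes. TCACNCCAC stood only in the promoter of Hmgcs1 among the 5, at -137 to -129 from the start. It stood in 1.24% of all promoters and in 1 of 50 promoters of the other cholesterol genes. A match is a description of letters and not a site. Both promoters below are shown because their genes, Hmgcs1 and Insig1, held the most opposite values across the arrays. They lie at chr13:119690101-119690400 and chr5:28071162-28071461, on the plus strand, and capitals mark both motifs, with CCAAT on the minus strand reading ATTGG.
Hmgcs1 promoter: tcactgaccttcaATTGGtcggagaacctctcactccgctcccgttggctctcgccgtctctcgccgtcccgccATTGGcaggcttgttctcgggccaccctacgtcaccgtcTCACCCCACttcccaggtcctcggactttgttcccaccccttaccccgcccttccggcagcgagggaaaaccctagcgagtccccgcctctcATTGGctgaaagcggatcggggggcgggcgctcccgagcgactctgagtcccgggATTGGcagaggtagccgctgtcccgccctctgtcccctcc
Insig1 promoter: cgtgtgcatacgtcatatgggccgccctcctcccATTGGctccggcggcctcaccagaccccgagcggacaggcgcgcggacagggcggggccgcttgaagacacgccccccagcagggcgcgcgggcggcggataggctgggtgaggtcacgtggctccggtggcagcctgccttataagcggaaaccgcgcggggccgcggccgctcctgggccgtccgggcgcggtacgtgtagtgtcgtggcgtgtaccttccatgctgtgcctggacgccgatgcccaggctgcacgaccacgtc

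Some arrays stood apart from their groups. App, a transgene of the model, read 12.98 and 13.01 on the log2 scale in HPYD groups 1 and 2 but 12.53 in the array bearing the label HPYD group 3, against 12.95 to 13.02 in the model arrays and 12.56 to 12.62 in the control arrays. Prnp, Cst7 and the sex-linked genes Xist and Kdm5d placed the same array with the control arrays, so HPYD group 3 went against its label, and values without it are given beside the HPYD comparisons of the 7 genes and wherever it moved another gene by over 1.5 times or turned its direction. Xist read 11.33 and 11.47 in HPYD groups 1 and 2 and 11.18 to 11.78 in the model arrays, against 5.20 to 5.69 in the control arrays. Genotype and sex therefore cannot be told apart in model against control, nor in HPYD against control once HPYD group 3 is left out. Genes of skeletal muscle, 18 of 18 measured, had a list median 0.81 above the control mean in HPYD group 2, 2.44 in Model group 1 and 3.92 in Model group 2. Their summed signal was 2624 to 5018 in HPYD arrays, 2792 to 29619 in model arrays and 2122 to 2650 in control arrays. Brain markers were present: the 7 measured markers of neurons had mean log2 signals from 9.95 to 13.2.

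For none of the 7 genes did a difference between groups pass the test, and the groups overlapped throughout. Hmgcs1 makes HMG-CoA, the precursor of mevalonate. It read 10.64, 10.65 and 10.45 on the log2 scale in the HPYD arrays, 10.63, 10.32 and 10.77 in the model arrays and 10.71, 10.60 and 10.80 in the control arrays. Model group 2 was the lowest of all 9 arrays, and Control group 3 the highest. Idi1 interconverts the isoprenoid building blocks, and read 9.10, 8.94 and 8.75 in the HPYD arrays, 9.07, 8.97 and 8.93 in the model arrays and 8.96, 8.96 and 9.03 in the control arrays. HPYD groups 1 and 3 were the highest and the lowest of the 9 arrays, so the HPYD group spanned both others. Fdft1, squalene synthase, commits isoprenoids to sterols. It read 11.53, 11.43 and 11.25 in the HPYD arrays, 11.51, 11.34 and 11.55 in the model arrays and 11.51, 11.61 and 11.51 in the control arrays. The lowest arrays were HPYD group 3 and Model group 2, and the other 7 read 11.43 to 11.61. A second probe set of Fdft1 was likewise lowest in these arrays, at 11.02 and 11.26, and one of Idi1 was lowest in HPYD group 3, at 8.71.

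Sqle, squalene epoxidase, catalyses a rate-limiting oxygenation. It read 9.62, 9.82 and 9.59 in the HPYD arrays, 9.80, 9.48 and 9.81 in the model arrays and 9.86, 9.78 and 9.84 in the control arrays. The control arrays were close together, with an SD of 0.04, and Model group 2 was again the lowest of the 9. Lss folds oxidosqualene into lanosterol, and read 8.13, 8.38 and 8.36 in the HPYD arrays, 8.15, 8.39 and 8.17 in the model arrays and 8.27, 8.16 and 8.31 in the control arrays. It had the smallest range of the 7 genes, 0.26 over the 9 arrays, and Model group 2 was here the highest. Cyp51, lanosterol demethylase, read 8.71, 8.39 and 8.28 in the HPYD arrays, 8.44, 8.53 and 8.64 in the model arrays and 8.69, 8.56 and 8.56 in the control arrays. The HPYD arrays held both the highest and the lowest value. Insig1 read 10.43, 10.53 and 10.69 in the HPYD arrays, 10.40, 10.82 and 10.40 in the model arrays and 10.32, 10.47 and 10.47 in the control arrays. Model group 2 and HPYD group 3 were the highest, and the range of 0.50 was the widest of the 7 genes.

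**Figure D1:**
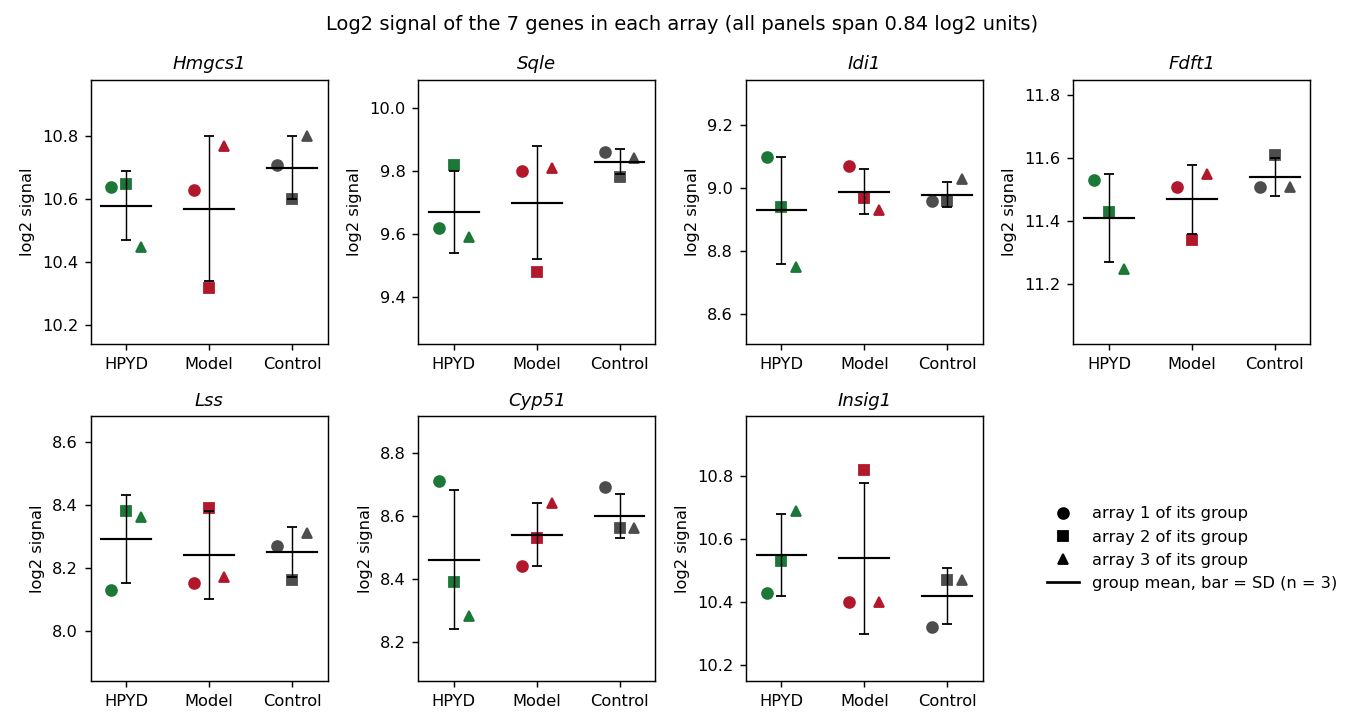
Log2 signal (y axis) of each gene in the HPYD, model and control arrays (x axis), with 1 point per array and the group mean and SD (n = 3). Every gene's groups overlap, Model group 2 is lowest for Hmgcs1 (10.32) and Sqle (9.48), and Insig1 is highest there (10.82).

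In the comparison of model with control, which asks whether transgenic brains differ in these genes, 5 of 7 had the lower mean in model brains. Over all 19938 genes, 54.9% had the lower mean there. Hmgcs1 averaged 10.57 ± 0.23 in model and 10.70 ± 0.10 in control arrays (SD, n = 3 each), a log2 fold change of -0.13 (SE 0.12). Sqle averaged 9.70 ± 0.18 in model and 9.83 ± 0.04 in control arrays, also a log2 fold change of -0.13 (SE 0.10). The other 3 synthesis enzymes with lower means, Fdft1, Lss and Cyp51, had log2 fold changes of -0.07, -0.01 and -0.07, while Idi1 had 0.01. Insig1, the regulator, averaged 10.54 ± 0.24 in model and 10.42 ± 0.09 in control arrays, a log2 fold change of 0.12 (SE 0.13). None of the 7 passed the test in limma, with adjusted p from 0.859 to 0.997, where 0 of 19938 genes (0%) passed. None had an unadjusted p under 0.05, against 4.92% of all genes, and none had groups that did not overlap, against 9.52%. The intervals of the 7 genes ran from -0.40 to 0.41 on the log2 scale, or 0.758-fold to 1.33-fold. That of Idi1 ran from -0.20 to 0.21, and the outer bounds were those of Hmgcs1 and Insig1. The median of the 7 was -0.07, beside -0.01 over all genes. Without Model group 2 alone, Hmgcs1 had a log2 fold change of 0.00 and Insig1 of -0.02. Without the 3 arrays that carried skeletal muscle signal, which leaves Model group 3 alone in its group, Hmgcs1 had 0.07 and Insig1 -0.02.

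The comparison of HPYD with model asks whether the peptide moved the genes in transgenic brains. The means lay close together: the log2 fold changes ran from -0.08 for Cyp51, over -0.06 for Idi1 and Fdft1, -0.02 for Sqle, 0.00 for Hmgcs1 and 0.01 for Insig1, to 0.06 for Lss. Hmgcs1 averaged 10.58 ± 0.11 in HPYD and 10.57 ± 0.23 in model arrays, and Cyp51 averaged 8.46 ± 0.22 in HPYD and 8.54 ± 0.10 in model arrays. None of the 7 passed, with adjusted p of 1 in limma, where 0 of 19938 genes (0%) passed. None had an unadjusted p under 0.05, against 1.97% of genes, and none had groups that did not overlap, against 3.22%. The intervals ran from -0.33 to 0.30, or 0.796-fold to 1.23-fold. The median was -0.02, beside 0.02 over all genes. Without the 3 arrays that carried skeletal muscle signal, the median moved to -0.14, and Hmgcs1 had -0.23. That choice leaves Model group 3 alone in its group. The HPYD arrays left are HPYD group 1 and HPYD group 3, the array that went against its label. Without HPYD group 3 the log2 fold changes lay between -0.06 for Insig1 and 0.07 for Hmgcs1, again with adjusted p of 1, although the sign turned for Sqle, Idi1, Fdft1, Cyp51 and Insig1.

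HPYD and control brains, which share their control arrays with the first comparison, differed most in Sqle among the 7. Sqle averaged 9.67 ± 0.13 in HPYD and 9.83 ± 0.04 in control arrays, a log2 fold change of -0.15 (interval -0.39 to 0.08). Fdft1 and Cyp51 each had a log2 fold change of -0.14, Hmgcs1 of -0.12 and Idi1 of -0.05, while Lss had 0.04 and Insig1 0.13. None of the 7 passed, with adjusted p from 0.86 to 0.927, where 0 of 19938 genes (0%) passed. None had an unadjusted p under 0.05, against 3.24% of genes, and none had groups that did not overlap, against 9.52%. The median was -0.12, beside 0.01 over all genes. Without HPYD group 3, Sqle had -0.11, Hmgcs1, Fdft1 and Cyp51 each -0.06, Lss 0.01 and Insig1 0.06, Idi1 turned to 0.04, and all 7 had an adjusted p of 1. Over all 21 member comparisons the lowest exact two-sided permutation p was 0.2, where 0.1 is the smallest that 3 arrays against 3 allow.

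**Figure D2:**
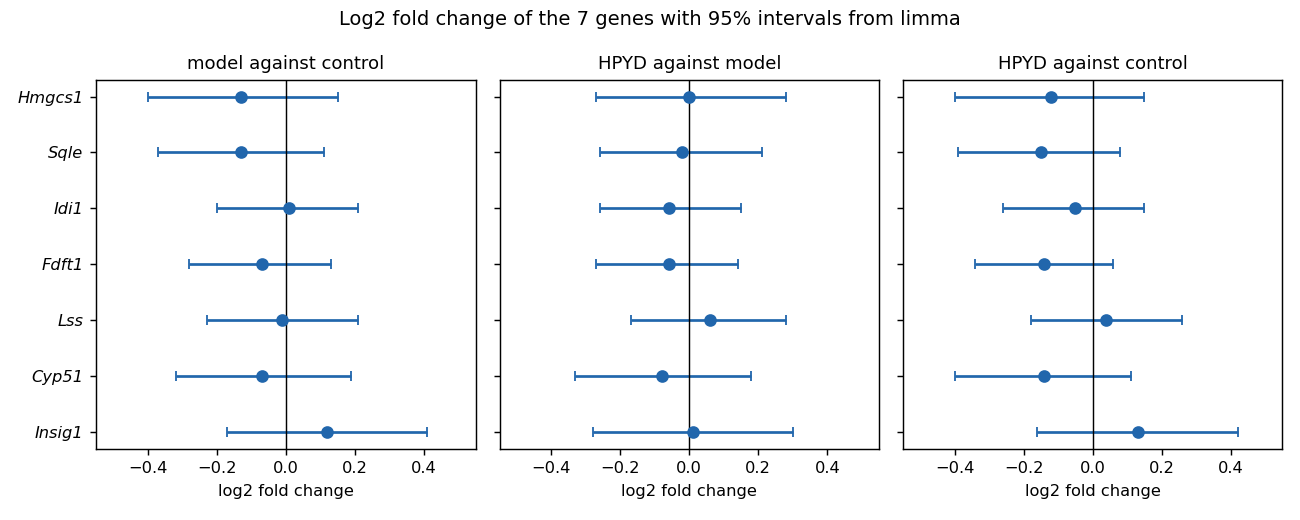
Log2 fold change (x axis) of the 7 genes (y axis) in the 3 comparisons, with points for the fit across all genes and bars for 95% intervals from limma. Every interval holds 0, and the farthest bounds are -0.40 and 0.42.

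Several of the genes stood apart in the same single arrays. Against the control mean, Hmgcs1 was lower by 0.25 in HPYD group 3 and by 0.38 in Model group 2, Sqle by 0.24 and 0.34, and Fdft1 by 0.29 and 0.20. Both arrays lay below the other 7 in all 3 of these genes, and above them in Insig1. Against the control mean, Insig1 was higher by 0.27 in HPYD group 3 and by 0.40 in Model group 2. These arrays were singled out after the values were seen. The share of all genes that stood apart in them, here and for the lists below, was not counted. Idi1 was lower by 0.23 in HPYD group 3 but -0.01 from the control mean in Model group 2. Cyp51 was lower by 0.32 in HPYD group 3, 0.21 in HPYD group 2, 0.16 in Model group 1 and 0.08 in Model group 2. Srebf2, which encodes SREBP-2, read 10.27 in HPYD group 3 and 10.29 in Model group 2, against 10.61 to 10.76 in the other 7 arrays. Msmo1, the sterol methyl oxidase that acts after Cyp51, read 10.05 and 10.30 in those arrays, against 10.45 to 10.57. These were not typical of their lists: of 13 other synthesis enzymes 10 did not stand apart in both arrays, 2 (Msmo1 and Pmvk) were below and Ebp was above, and of 7 sterol sensing genes 5 did not stand apart and Srebf1 was above.

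The same arrays stood apart in sterol turnover and in markers of cell types. Cyp46a1, the neuronal enzyme that hydroxylates cholesterol for export from the brain, read 9.56 in HPYD group 3 and 9.35 in Model group 2, against 10.48 to 11.01 in the other 7 arrays. Cyp27a1, a mitochondrial sterol hydroxylase, read 8.88 and 9.07 in them, against 7.39 to 8.06. Of 9 measured markers of forebrain excitatory neurons, a list chosen after these values were seen, 8 were below the other 7 arrays in both. The list median was 0.98 below the control mean in HPYD group 3 and 0.92 below in Model group 2, and -0.17 to 0.25 in the others. Its summed signal was 9812 to 19349 in HPYD arrays, 10292 to 20220 in model arrays and 18156 to 22388 in control arrays. For microglia, 5 of 7 markers were below the others, and the list medians were 0.74 and 0.43 below the control mean. Other lists went otherwise. Of 8 astrocyte markers, 4 were above the other arrays in both and 1 was below. Of 7 general neuron markers, 3 were above and 3 below. Of 9 genes of hindbrain and spinal neurons, a list also chosen after values were seen, 5 were above and 0 below. The part of tissue composition in the values of Hmgcs1, Sqle, Fdft1 and Insig1 was not tested. In such bulk RNA, fewer cells of a type and less RNA per cell cannot be told apart.

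**Figure D3:**
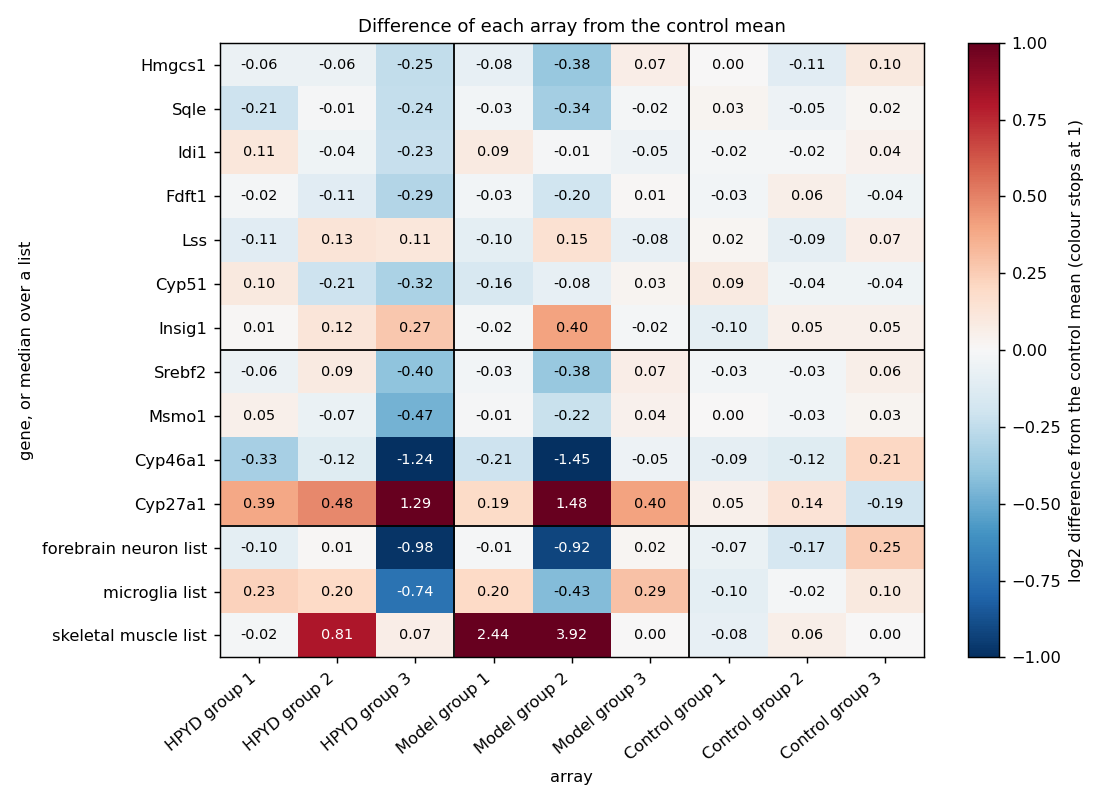
Difference of each array (x axis) from the control mean on the log2 scale for the 7 genes, 4 other cholesterol genes and the medians of 3 marker lists (y axis), with the colour scale stopped at 1. HPYD group 3 and Model group 2 share low Hmgcs1, Sqle, Fdft1, Srebf2 and Cyp46a1 and high Insig1 and Cyp27a1.

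Across the 9 arrays the 5 enzymes other than Lss were all positively correlated with each other, with Pearson's r from 0.21 to 0.86 over 10 pairs. Hmgcs1 and Sqle were the closest pair, with r = 0.86. Insig1 ran against these 5 enzymes, with r from -0.86 for Hmgcs1 to -0.46 for Idi1, and Lss ran with Insig1, with r = 0.70. These values rest on a few arrays and share array and tissue. Without HPYD group 3 and Model group 2, the r of Hmgcs1 with Sqle was 0.42, and those of the 10 enzyme pairs ran from -0.63 to 0.47. The r of Hmgcs1 with Insig1 was then -0.17. Those of Insig1 with the 5 enzymes all stayed negative, from -0.63 for Cyp51 to -0.10 for Sqle. Fdft1 with Lss had r = -0.74 without these arrays, beside -0.77 over all 9. The genes most like the 7 genes' mean centred value, of 19931 others, were Gpsm2, Il1rapl1 and Nckipsd, each with r = 0.98, and Sema4a and Sema3c, each with r = 0.97. Without HPYD group 3 and Control group 3, whose means lay farthest from the median, their r was 0.92, 0.97, 0.88, 0.92 and 0.91. As these genes were picked for their r over all 9 arrays, high values follow in part from the picking. The r without those arrays is no independent check, because the arrays left were used in the picking. That mean spanned only -0.10 to 0.06 over the arrays, and the values of Insig1 and Lss run against the other 5 genes in it.

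Of 50 other cholesterol genes listed, 40 were measured, and none passed in any comparison. Among the other synthesis enzymes, 3 of 13 had the higher mean in model than in control brains and 10 the lower, beside 54.9% lower over all genes. The median log2 fold change of these enzymes was -0.03. Without Model group 2, 7 were higher and 6 lower, with a median of 0.01. In HPYD against model the median was 0.00, and in HPYD against control it was 0.01. Ebp, which isomerises sterols late in the pathway, read 8.97, 9.13 and 8.89 in model arrays, against 8.62, 8.71 and 8.88 in control arrays. The groups did not overlap, but only just, at 8.89 against 8.88, and 9.52% of all genes did not overlap in this comparison. The log2 fold change of Ebp was 0.26, and the adjusted p in limma was 0.859. Nsdhl read 9.84, 10.03 and 9.90 in HPYD arrays, against 10.09, 10.03 and 10.09 in control arrays. Its log2 fold change was -0.15 (adjusted p 0.86 in limma). Sc5d had 0.09 in model against control and 0.10 in HPYD against control (adjusted p 0.859 and 0.86 in limma). Its control arrays lay below all others, where 9.52% of all genes did not overlap in each of these comparisons. Lbr, the lamin B receptor with sterol reductase activity, read 8.44, 8.96 and 7.98 in model arrays, against 8.08, 8.09 and 7.87 in control arrays. In HPYD arrays Lbr read 7.98, 8.45 and 8.37. Among its high arrays, Model groups 1 and 2 and HPYD group 2 carried skeletal muscle signal, but HPYD group 3 did not. In HPYD group 2, Model group 1 and Model group 2, the granulocyte list medians were 2.78, 3.43 and 3.80 above the control mean. The erythroid list medians there were 1.36, 1.02 and 2.16. In HPYD group 3 these medians were -0.13 and 0.21. The parts of muscle, granulocytes and erythroid cells in the Lbr values were not tested. The 7 sterol sensing genes had medians of -0.01, 0.01 and -0.03 in model against control, HPYD against model and HPYD against control, the first of which turned to 0.01 without Model group 2. The HPYD medians were 0.03 against model and -0.01 against control without HPYD group 3. Srebf2 had log2 fold changes of -0.11, -0.01 and -0.12 in that order. Without HPYD group 3 its HPYD against model value turned to 0.13 and its HPYD against control value to 0.02, and without Model group 2 its model against control value turned to 0.02. Srebf1, its lipogenic relative, had 0.08, 0.09 and 0.17, with 0.01 in model against control without Model group 2, 0.16 in HPYD against model without Model group 2 and 0.04 without HPYD group 3.

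For uptake and lysosomal release, 10 genes were measured. Of these, 7 had the higher mean in model than in control brains, where 54.9% of all genes had the lower. The list median was 0.04, or 0.02 without Model group 2. Npc2, which hands cholesterol to Npc1 in the lysosome, read 9.20, 9.39 and 9.16 in model arrays, against 8.98, 9.04 and 8.90 in control arrays. The groups did not overlap, as for 9.52% of all genes in this comparison. The log2 fold change of Npc2 was 0.27 (SE 0.07), with an unadjusted p of 0.00563 and an adjusted p of 0.859 in limma. In HPYD arrays Npc2 read 9.19, 9.24 and 9.22, a log2 fold change of 0.24 over the control arrays and of -0.04 over the model arrays. Npc1, which exports cholesterol through the lysosomal membrane, averaged 10.53 ± 0.09 in HPYD and 10.32 ± 0.10 in control arrays, a log2 fold change of 0.21 (adjusted p 0.86). Scarb1, a receptor for high-density lipoprotein, had -0.29 in HPYD against control, with all HPYD arrays below all control arrays, and -0.13 without HPYD group 3. Over all genes, 9.52% did not overlap in HPYD against control. Mylip, a ubiquitin ligase, had 0.17 in the same comparison.

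In efflux, storage and turnover, 10 genes were measured, with medians of -0.01, 0.02 and 0.03 in model against control, HPYD against model and HPYD against control. The first turned to 0.03 without Model group 2, and the HPYD medians were -0.01 against model and 0.05 against control without HPYD group 3. Abca1, which loads cholesterol onto apolipoproteins, averaged 8.99 ± 0.17 in HPYD and 8.76 ± 0.10 in control arrays, a log2 fold change of 0.24 (adjusted p 0.86), and 0.14 without HPYD group 3. Apoe, the main apolipoprotein of the brain, had log2 fold changes of 0.01, 0.03 and 0.04 in the 3 comparisons, the last 2 of which were 0.12 and 0.13 without HPYD group 3. Cyp27a1 had 0.69 in model against control and 0.72 in HPYD against control, and Cyp46a1 had -0.57 and -0.56, with intervals that held 0. Single arrays carried much of these values: without Model group 2, Cyp27a1 had 0.30 and Cyp46a1 -0.13 in model against control, and without HPYD group 3 they had 0.43 and -0.22 in HPYD against control. Nceh1, a cholesteryl ester hydrolase, had -0.23 in HPYD against control, with all HPYD arrays below all control arrays, and -0.14 without HPYD group 3. Over all genes, 9.52% did not overlap in HPYD against control.

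**Figure D4:**
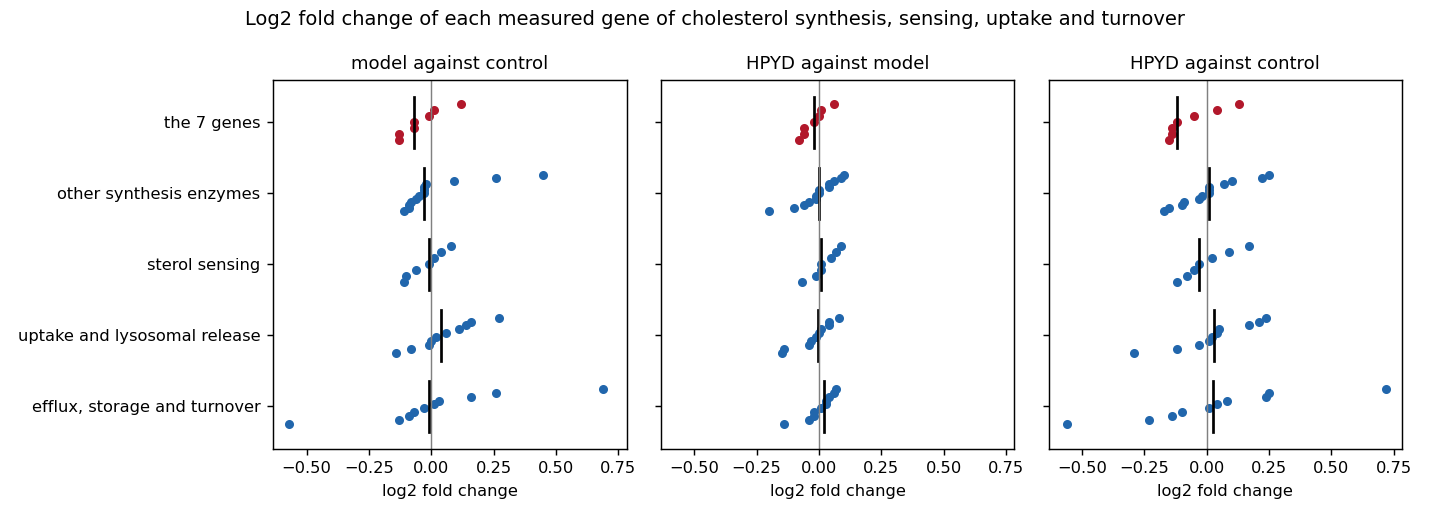
Log2 fold change (x axis) of each measured gene in 5 lists (y axis) in the 3 comparisons, with 1 point per gene and a vertical line at each list's median. The 7 genes lie between -0.15 and 0.13, and Cyp27a1 (0.72) and Cyp46a1 (-0.57) are the farthest of the 40 others.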

How the data were processed

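Total RNA of brain was hybridised to Affymetrix Mouse Gene 1.0 ST arrays, with 3 arrays in each group. The deposited table holds log2 signals made by the authors for 35556 probe sets and 9 arrays, and MAS5 is named in the submitters' processing notes. Further normalization and filters were not given in the sources used here, and the number of arrays limits the precision. Array medians were 6.69 to 6.82. Gene symbols came from GEO's platform annotation: 21789 probe sets had 1 symbol, 1621 several and 12146 none. The probe set with the highest mean stood for each gene, leaving 19938, with 0 columns unused. All 3 groups entered one fit in R 4.3.3 with limma 3.58.1 (lmFit and eBayes), with Benjamini-Hochberg adjustment over all genes and a threshold of 0.05. Exact two-sided permutation tests were run on single genes. Named were the 7 genes, up to 4 genes of each pathway list with the smallest p, Srebf2, Abca1, Apoe and Cyp46a1, the 5 genes most correlated with the members' mean, and 5 checks of the labels. Msmo1 and Pmvk were named after their values were seen, and leaving out single arrays for the pathway genes was an alternative chosen after seeing the data. The members and lists were chosen with earlier results of these data known. Alternatives included leaving out each array, a median shift, array weights, and skeletal muscle as a covariate. The code was tested on simulated data.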

Additional observations from a re-analysis of the deposited data

How the results depend on the processing

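No member passed the threshold under any of 19 alternative settings, where the lowest adjusted p was 0.587 in model against control, 0.779 in HPYD against model and 0.516 in HPYD against control. Of 133 member values per comparison, 114, 113 and 127 kept their direction in that order.

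In model against control, fitting only the 6 arrays compared called 5 genes. A median shift gave Idi1 -0.04. With skeletal muscle level as a covariate, Hmgcs1 had 0.08, Idi1 -0.02, Fdft1 0.02, Cyp51 0.02 and Insig1 -0.08. Without the 3 arrays in which skeletal muscle genes were raised, Hmgcs1 had 0.07, Idi1 -0.05, Fdft1 0.01, Cyp51 0.03 and Insig1 -0.02, where Model group 3 alone was assumed to vary like the others. With Model group 2 and HPYD group 3 both left out, an alternative chosen after seeing the data, 15 genes were called and Insig1 had -0.02. Leaving out single arrays gave 0 to 7 genes called, -0.03 to 0.04 for Idi1, -0.09 to 0.03 for Lss and -0.02 to 0.19 for Insig1. The highest count came without HPYD group 3, and no member was among the genes called there.

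In HPYD against model, Hmgcs1 had 0.00 with a median shift, -0.05 with array weights, -0.18 with the muscle covariate, -0.23 without the raised arrays and -0.05 without both arrays named above, where Idi1 had 0.02 and Cyp51 0.01. The median of the 7 genes was -0.13 with the muscle covariate and -0.14 without the raised arrays. Single omissions gave -0.12 to 0.10 for Hmgcs1, -0.13 to 0.03 for Sqle, -0.14 to 0.03 for Idi1, -0.13 to 0.01 for Fdft1, -0.20 to 0.01 for Cyp51 and -0.06 to 0.15 for Insig1.

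In HPYD against control, Lss had -0.01 with a median shift and 0.00 without the raised arrays. Without both arrays named above, 18 genes were called and Idi1 had 0.04. Single omissions gave 0 to 8 genes called, -0.13 to 0.04 for Idi1 and 0.00 to 0.12 for Lss. The 8 were called without HPYD group 3, and no member was among them.

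Same-numbered arrays did not deviate together, with r from -0.32 to 0.18. The replicate block gave 0 genes called in each comparison and member medians of -0.07, -0.02 and -0.12, so it changed no call. The methods' analysis of variance called 287, 137 and 241 genes at their threshold and 0 after adjustment. The causes of these changes were not tested.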

Other observations

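Myelin is rich in cholesterol, and oligodendrocytes make it. Of 11 measured genes of oligodendrocytes and myelin, 11 had the higher mean in model than in control brains. Over all genes, 54.9% had the lower mean in model brains. The median log2 fold change of the 11 was 0.38, and none passed in limma. In HPYD against control brains 10 of 11 were higher, with a median of 0.37, or 0.29 without HPYD group 3. The list's median against the control mean was 0.49, 0.09 and 0.42 in the HPYD arrays, 0.07, 0.59 and 0.47 in the model arrays and -0.15, 0.37 and -0.21 in the control arrays, so the groups overlapped. Without Model group 2 the model against control median was 0.26. The 5 choroid plexus genes, whose part in the myelin values was not tested, had medians of 0.95, -0.57 and 1.27 in the HPYD arrays, 0.47, 0.92 and 0.71 in the model arrays and -0.53, 1.05 and -0.52 in the control arrays, and 5 of 5 had the higher mean in model than in control brains. Of 8 astrocyte genes, 7 had the higher mean in model than in control brains, with a median of 0.07. The 11 granulocyte genes had medians of 2.78 in HPYD group 2, 3.43 in Model group 1 and 3.80 in Model group 2, against -0.79 to 0.15 in the other arrays. The 9 genes of hindbrain and spinal neurons, a list chosen after values were seen, had medians of -0.08, 0.38 and 0.39 in the HPYD arrays, 0.35, 0.81 and -0.04 in the model arrays and 0.06, 0.06 and -0.08 in the control arrays.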
